A study of Homo sapiens with 6 samples.

Results

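The cytosolic ribosomal protein genes encode the proteins of the small (40S) and large (60S) subunits of the ribosome that translates nuclear messenger RNA. They were taken as all genes whose symbol is RPL or RPS followed by a digit, with RPLP0, RPLP1, RPLP2 and RPSA, without RPS6K kinases and pseudogenes, and with a probe detected above the array's negative controls (detection p under 0.05) on at least 3 arrays. RPS19BP1, whose symbol fits the pattern, encodes a binding protein of RPS19 and was left out. By name 107 probes for 76 genes belonged to the set, and 101 probes for 73 genes passed, of 11586 genes tested in all. The 6 probes that did not pass left RPL10, RPL37 and RPL3L without a measurement.

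Expression was measured on 6 single-colour Illumina bead arrays of a pair of stable derivatives of HuCCT1, a cell line from a human cancer of the bile ducts. An empty vector was in the mock cells. The second derivative was labelled as overexpressing WTAP, which helps to place the enzyme that methylates adenosines (N6-methyladenosine) in messenger RNA, without a further treatment in either. Both groups comprised 3 arrays with the numbers 4, 5 and 6. Neither separate cultures nor the number of clones is stated in the labels, so the p-values reflect the spread among these 6 arrays and no more, and that spread may be technical. The WTAP probe tested read 9.77, 9.90 and 9.85 on the log2 scale on the mock arrays and 9.96, 9.90 and 9.85 on the arrays labelled WTAP, so the groups overlapped and no increase was measured (log2 fold change 0.06 ± 0.10, SE, adjusted p = 0.703, limma). The other WTAP probe detected on all 6 arrays also overlapped, with 7.50, 7.40 and 7.70 against 7.41, 7.37 and 7.79 (-0.01 ± 0.15, SE, adjusted p = 0.970 over all probes). The direction of every change therefore rests on the labels; whether these probes can read the vector's transcript is unknown. Between 15071 and 16307 probes were detected per array. All 9 cholangiocyte markers measured (KRT7, KRT19, KRT8, KRT18, EPCAM, SOX9, MUC1, CFTR and ANXA4) were detected, with a summed normalized signal of 115122 to 128788 on the mock arrays and 123821 to 138052 on the arrays labelled WTAP. Of 12 markers of other cells, APOA1, CD3E, DCN, PDGFRB, PECAM1, PTPRC and VWF were not detected on 3 arrays. ALB, CD14, CD68 and HBB were detected on all 6 arrays and COL1A2 on 4, with CD68 the brightest at a mean of 10.65 (log2). The sum of all 12 was 2510 to 2829 and 2607 to 2780. A marker in each list changed at an adjusted p under 0.05 (limma): MUC1 rose by 1.75 (log2, adjusted p = 0.00544), and HBB, at 6.56, 6.60 and 6.62 against 8.16, 8.21 and 7.95, rose by 1.51 (adjusted p = 0.000218). ALB (-0.39, adjusted p = 0.0641), KRT19 (0.23, 0.183) and SOX9 (-0.24, 0.232) had groups that did not overlap. The part of these markers in the results was not tested. In such bulk samples, fewer cells of a type and less RNA per cell cannot be told apart.

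Ribosomal proteins are made in matched amounts and are joined to ribosomal RNA in the nucleolus before the finished subunits meet on messenger RNA in the cytoplasm. Their messenger RNAs typically open with a terminal oligopyrimidine (TOP) tract, a C followed by a run of C and T, through which the mTORC1 kinase and the RNA-binding protein LARP1 adjust their translation together. Several members also act outside the ribosome: RPL5 and RPL11 bind the p53 inhibitor MDM2 when ribosome assembly fails, and RPS6 is a substrate of the S6 kinases. Some have paralogs such as RPL10L, RPL39L and RPS27L, of which the first is an intronless copy of RPL10 used in male germ cells of the mouse.

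The TOP tract was visible at most annotated starts of these genes. Of 63 members with a start in the RefSeq promoter table (GRCh38.p14), 42 (66.7%) had a start at which a C was followed directly by at least 4 bases that are each C or T on the gene's strand, against 1404 of 27305 genes in the table (5.14%); counted over single starts, the shares were 57.5% of the members' 73 starts and 4.07% of all. Genes that moved and genes that did not both carried it: RPL29 and RPL34 among the 5 lower genes with an entry, RPL22 and RPL28 among 2 higher ones, and 38 of 56 that did not pass the test. Of 7 paralogs with an entry RPS4Y1 matched. The windows below belong to genes named in the comparison, of which RPS24, RPL21 and RPS27L did not pass with their tested probe. For RPL34 the matching start is shown, and a further annotated start without a match is not. Each holds the 15 bases before and the 15 bases from the annotated start, that is upstream sequence and the opening of the first exon, 5′ to 3′ on the gene's strand, with the tract in capitals where it begins at the start itself.
RPL29, chr3:51995881-51995910, minus strand: caccgcagcccctttCTCTTCCggttctag
RPL34, chr4:108620561-108620590, plus strand: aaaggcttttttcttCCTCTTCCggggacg
RPL22, chr1:6199581-6199610, minus strand: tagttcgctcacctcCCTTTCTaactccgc
RPL28, chr19:55385917-55385946, plus strand: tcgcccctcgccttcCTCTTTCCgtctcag
RPS24, chr10:78033848-78033877, plus strand: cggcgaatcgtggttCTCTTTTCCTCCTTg
RPL21, chr13:27251543-27251572, plus strand: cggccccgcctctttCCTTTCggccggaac
RPS7, chr2:3575245-3575274, plus strand: gtttccgccctcctcctcgcgctgtttccg
RPL10L, chr14:46651767-46651796, minus strand: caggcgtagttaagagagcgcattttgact
RPS27L, chr15:63157463-63157492, minus strand: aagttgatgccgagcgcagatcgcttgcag
The first 6 windows carry the tract at the start. In RPS7 a G interrupts the run after the start, so it did not match, although pyrimidines also stand before the start. RPL10L and RPS27L open with a G and had no match. A missing match says only that these letters are not at the annotated start. RPL6 had no match at either of its annotated starts, and RPL39L had no entry.

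As a group, the ribosomal protein genes lay close to 0. Of 73 tested, 8 passed the threshold (limma, Benjamini-Hochberg adjusted p under 0.05), 6 lower and 2 higher on the arrays labelled WTAP, while 20.4% of all genes tested passed, 9.91% lower and 10.5% higher. The share among the members was 11%. RPL10L, among the 6 lower genes, passed the detection filter only through the mock arrays. Their median log2 fold change was -0.01, with a middle range of -0.08 to 0.04, beside 0.003 and a middle range of -0.22 to 0.23 for all genes. Apart from RPL10L, for which only a bound can be given, the largest fitted size was 0.67 on the log2 scale, in RPL29. The 3 arrays of one group lay beyond those of the other in 19 members (26%), 10 lower and 9 higher, while 39.7% of all genes showed this. For 60 of the 65 members that did not pass, the 95% interval of the change lay within 1.5-fold in both directions. The exceptions were RPL13, RPL8, RPL32, RPL21 and RPS27L. Among all 11586 genes, 6045 did not pass and had such an interval. It was also held by 106 of the 113 genes with a mean signal above 50% of the mean array maximum. Of these 113, 74 are not members, and 68 of the 74 held it. Of the 60 members, 38 were that bright, and whether such signals show a difference in full was not tested. The counts, and those over all genes, depended on single arrays. Without mock array 4, 5 or 6 there were 3, 2 and 2 lower genes and 0, 1 and 0 higher ones. Of all genes 14.7%, 12.7% and 13.7% passed, and RPL10L was not tested in these fits. Without array 4, 5 or 6 labelled WTAP there were 1, 3 and 5 lower and 0, 0 and 2 higher, beside 11.8%, 13.8% and 19.7% of all genes. Without background correction the split was 6 lower and 4 higher (25.6% of all genes), and with median scaling 7 lower and 1 higher (20.1%). With the array number as a block, 4 members were lower and 1 was higher (22.3%).

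**Figure D1:**
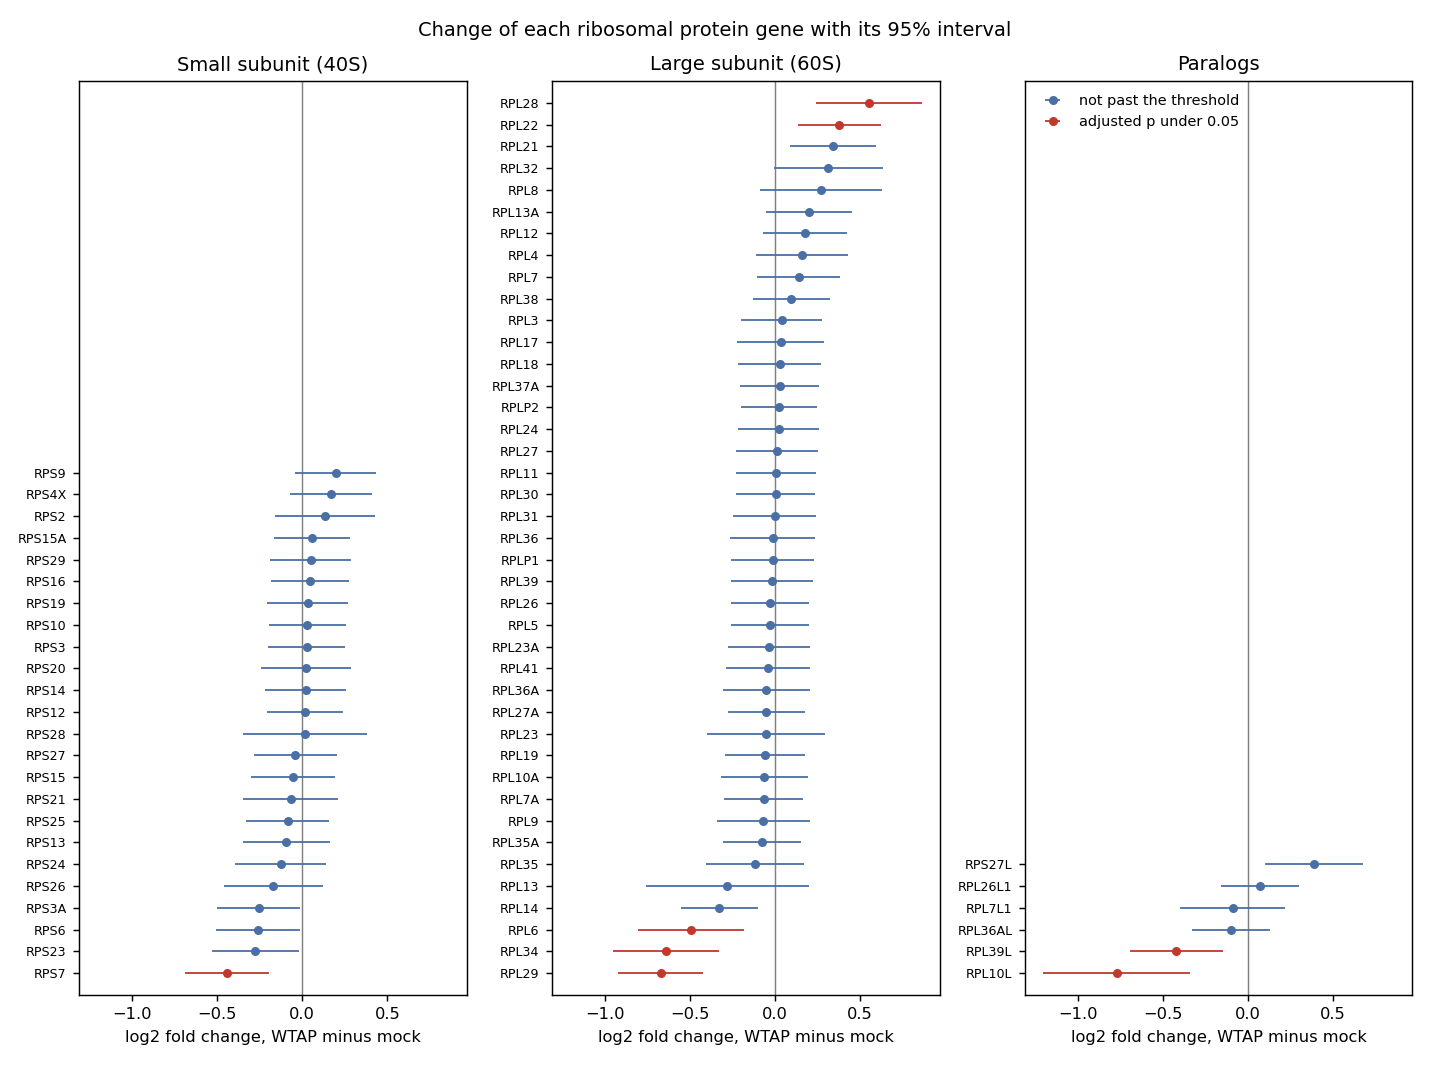
Log2 fold change (arrays labelled WTAP minus mock, horizontal axis) of each ribosomal protein gene with its 95% interval, ordered within small-subunit genes, large-subunit genes and paralogs; the pair of paralogs on the Y chromosome is not drawn. Most genes lie near 0, and the 8 in red passed the threshold.

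Among small-subunit genes only RPS7 passed (1 of 24 tested, 4.17%, with 0 higher), beside 20.4% of all genes. The median of the group was 0.02. RPS7 is needed for early processing of the small subunit's RNA and is among the genes mutated in Diamond-Blackfan anaemia. It read 13.11, 13.22 and 13.30 (log2) in mock cells and 12.76, 12.70 and 12.85 on the arrays labelled WTAP. The groups did not overlap, and RPS7 fell by 0.44 ± 0.11 (SE), or 1.36-fold (adjusted p = 0.0237). Its second probe had a log2 fold change of -0.39 ± 0.17 (SE), which did not pass in a fit of all detected probes (adjusted p = 0.147). RPS7 no longer passed without mock array 5 or 6 (adjusted p = 0.0729 and 0.0718), nor without array 4 or 5 labelled WTAP (0.0701 and 0.0728), over 16 alternatives 0.00197 to 0.0729.

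Other small-subunit genes with separate groups had smaller changes that did not pass. RPS6 read 15.18, 15.09 and 15.12 against 14.95, 14.92 and 14.74 (log2 fold change -0.26, adjusted p = 0.128), and RPS3A had a log2 fold change of -0.26 (adjusted p = 0.126). After subtraction of the median of their 50 nearest tested genes, RPS6 was at -0.08 and RPS3A, on chromosome 4 with neighbours at -0.38, was on the other side of 0 at 0.13. RPS23, of the decoding centre, had -0.28 ± 0.11 (SE, adjusted p = 0.119). RPS9 at 0.20 and RPS4X at 0.17 lay on the other side of 0 (adjusted p = 0.220 and 0.290). RPS19 and RPS14, known for their loss in Diamond-Blackfan anaemia and in the 5q- form of myelodysplasia respectively, had values of 0.03 and 0.02.

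Large-subunit genes held 3 falls and 2 rises among 41 tested (12.2%, beside 20.4% of all genes), with a median of -0.01. Neither subunit's share took account of probe brightness, described below. RPL29, a basic protein at the surface of the large subunit that also binds heparin, gave the lowest adjusted p of all members. Its values were 12.88, 12.92 and 13.05 in mock cells and 12.23, 12.23 and 12.38 on the arrays labelled WTAP, on the log2 scale. The highest value labelled WTAP thus stood well below the lowest mock value. RPL29 fell by 0.67 ± 0.11 (SE), or 1.59-fold (adjusted p = 0.00504), its second probe fell by 0.61 ± 0.11 (SE, adjusted p = 0.00675 over all probes), and the call held in all 16 alternatives tried (9.81e-05 to 0.0252). Before normalization its signal was 7794, 8005 and 8834 in mock cells against 4766, 4687 and 5293.

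RPL34 and RPL6 also fell. RPL34 read 12.99, 13.10 and 13.30 against 12.33, 12.46 and 12.68, and fell by 0.64 ± 0.14 (SE), or 1.56-fold (adjusted p = 0.0137). The second RPL34 probe fell by 0.88 ± 0.15 (SE, adjusted p = 0.00732 over all probes). RPL34 lies on chromosome 4, where its 50 nearest tested genes had a median of -0.29. After subtraction of that median the value was -0.35 and the call was lost (adjusted p = 0.149), as it was without array 4 labelled WTAP (0.0539, over 16 alternatives 0.000533 to 0.149). RPL6 read 12.42, 12.25 and 12.49 against 11.86, 11.71 and 12.11, and fell by 0.49 ± 0.14 (SE, adjusted p = 0.0365). The RPL6 groups were separate, but it no longer passed without mock array 4, 5 or 6 (0.0907, 0.0539 and 0.104), without array 4 or 5 labelled WTAP (0.104 and 0.107) and when undetected probes were kept (0.0553, over 16 alternatives 0.00440 to 0.107).

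RPL28 and RPL22 rose. RPL28, a large-subunit protein, read 9.58, 9.92 and 9.59 against 10.24, 10.38 and 10.12, a log2 fold change of 0.55 ± 0.14 (SE), or 1.47-fold (adjusted p = 0.0241). RPL22, which binds a small RNA of Epstein-Barr virus and is mutated in some tumours, read 13.04, 13.01 and 12.84 against 13.35, 13.30 and 13.36. All 3 arrays labelled WTAP lay above the mock arrays for both genes. RPL22 rose by 0.38 ± 0.11 (SE), or 1.30-fold (adjusted p = 0.0409), a call that was lost without any 1 of the arrays, lowest without mock array 4 (0.0657) and then without array 6 labelled WTAP (0.0737), array 5 labelled WTAP (0.0830), mock array 5 (0.0872), array 4 labelled WTAP (0.106) and mock array 6 (0.107). It was also lost with median scaling (0.0621), when undetected probes were kept (0.0559) and with the array number as a block (0.0532, over 16 alternatives 0.00529 to 0.107). RPL28 no longer passed without mock array 4 or 6 (0.0744 and 0.0741), nor without array 4 or 5 labelled WTAP (0.0721 and 0.0752, over 16 alternatives 0.00448 to 0.0752).

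**Figure D2:**
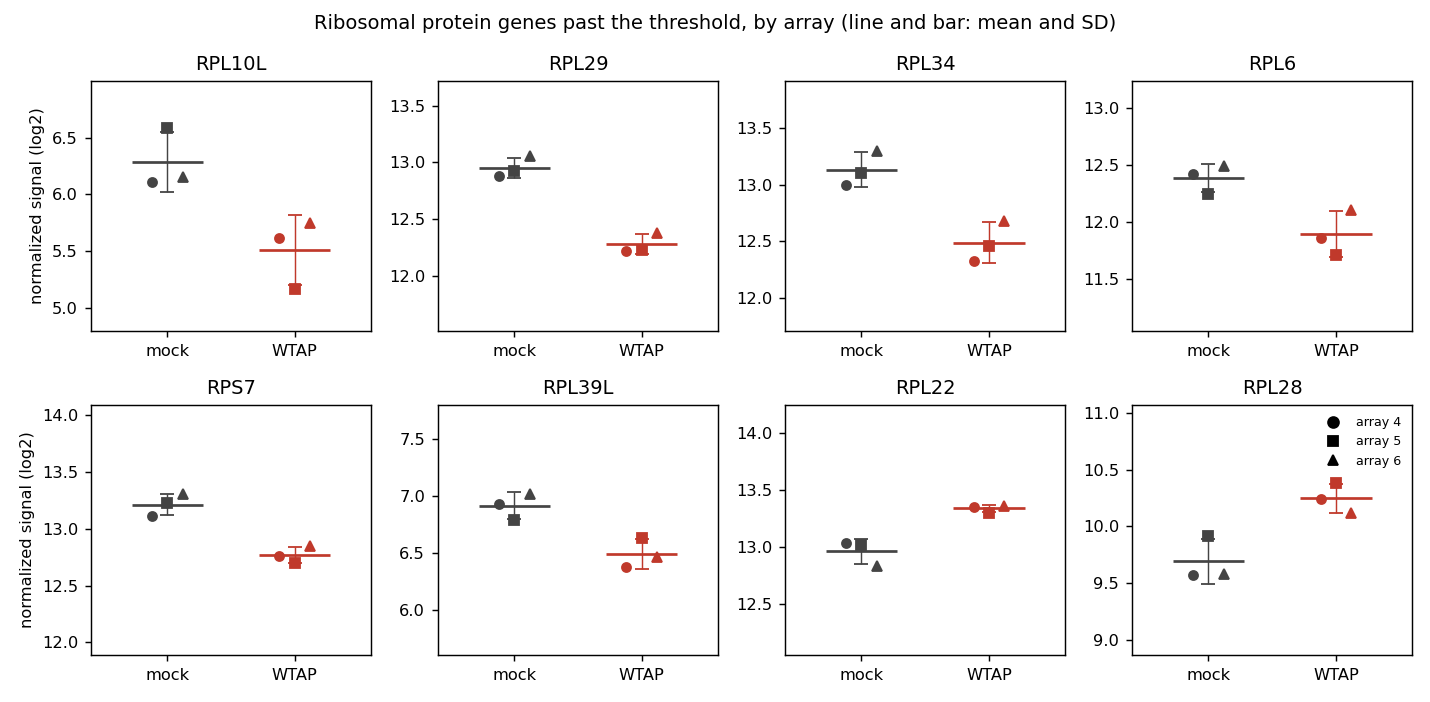
Normalized log2 signal (vertical axis, with the same span in each panel) of the 8 ribosomal protein genes past the threshold on the mock arrays and the arrays labelled WTAP; symbols mark the array numbers, lines the means and bars the SD (n = 3 each). In every panel the 3 values of one group lie apart from those of the other, with RPL22 and RPL28 higher and the other 6 lower on the arrays labelled WTAP.

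Further large-subunit genes came near the threshold. RPL14 read 12.10, 12.13 and 12.04 against 11.74, 11.75 and 11.81, a log2 fold change of -0.33 ± 0.10 (SE, adjusted p = 0.0512). It passed in 6 of 16 alternatives, but its second probe had a value of 0.01. RPL21 read 14.13, 14.11 and 13.89 against 14.38, 14.35 and 14.42 (0.34 ± 0.11, SE, adjusted p = 0.0624) and passed in 5 of 16. RPL32 had a log2 fold change of 0.31 (adjusted p = 0.149) with groups that overlapped. For RPL13 the value of -0.28 ± 0.21 (SE, adjusted p = 0.388) came with a wide spread, since array 6 labelled WTAP read 11.07 and the other 5 arrays 11.76 to 11.94. Without that array the value was -0.02. The second RPL13 probe had a value of -0.56 ± 0.20 (SE, adjusted p = 0.0881 over all probes). The MDM2-binding proteins RPL5 and RPL11 had log2 fold changes of -0.03 (95% interval -0.26 to 0.20) and 0.01 (-0.23 to 0.24), and the acidic stalk proteins RPLP1 and RPLP2 -0.01 and 0.02.

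The paralogs held 2 calls among 8 tested (25%, beside 20.4% of all genes), both lower and in dim probes. RPL10L was detected on the 3 mock arrays and on none labelled WTAP. It passed the filter only through the group in which it was high, so its difference followed in part from that filter. It read 6.11, 6.59 and 6.15 against 5.62, 5.17 and 5.75 on the log2 scale, and was at least 1.21-fold lower. The adjusted p of 0.0243 (limma) came from a fit that used the values not detected, and is not a test of that bound. With the array number as a block the adjusted p was 0.0523, and without array 4 or 5 labelled WTAP it was 0.0578 and 0.0589 (over 12 alternatives in which it was tested, 0.0224 to 0.0589). RPL39L, a copy of RPL39, read 6.93, 6.79 and 7.02 against 6.38, 6.64 and 6.47, and fell by 0.42 ± 0.12 (SE, adjusted p = 0.0416). The gap between the groups was narrower than the range within either.

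RPL39L passed in 4 of 16 alternatives only (0.0310 to 0.160). Its log2 fold change shrank to -0.19 where background was not corrected, and was -0.18 from the processed values. The call was also lost with the array number as a block (0.0605), without mock array 4, 5 or 6 (0.0998, 0.0604 and 0.113) and without array 4 or 6 labelled WTAP (0.127 and 0.0763). RPS27L, a paralog of RPS27 that p53 induces, read 13.27, 13.26 and 13.42 against 13.80, 13.82 and 13.50, a log2 fold change of 0.39 ± 0.13 (SE, adjusted p = 0.0620). Its groups were separate, with array 6 labelled WTAP nearest to the mock arrays; without that array the value was 0.50 and it passed (0.0248, over 16 alternatives 0.00837 to 0.720). RPL36AL had -0.10, RPL7L1 -0.09 and RPL26L1 0.07, with adjusted p of 0.527, 0.688 and 0.650. RPS4Y1 and RPS4Y2, on the Y chromosome, did not pass. At the edge of the detection filter, RPL10L with 3 arrays was the member just inside. Just outside were the RPL37 probe and a second RPL39L probe, each detected on 1 array.

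Brightness set the members apart from most genes on the arrays. The tested probes of 39 members had a mean deposited signal above 32009, which is 50% of the mean array maximum of 63009 to 65269, and 38 of the 100 brightest tested genes were members. None of these 39 passed, with changes of -0.26 to 0.27 and a median of 0.01. Among all 113 genes as bright, these 39 included, 2.65% passed, and among the 74 of them that are not members 4.05% did. The other 34 members held all 8 calls (23.5%), where 20.6% of the other genes passed. The brightness limit was chosen after these values were seen. Whether signals this near the array maximum show a difference in full was not tested.

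**Figure D3:**
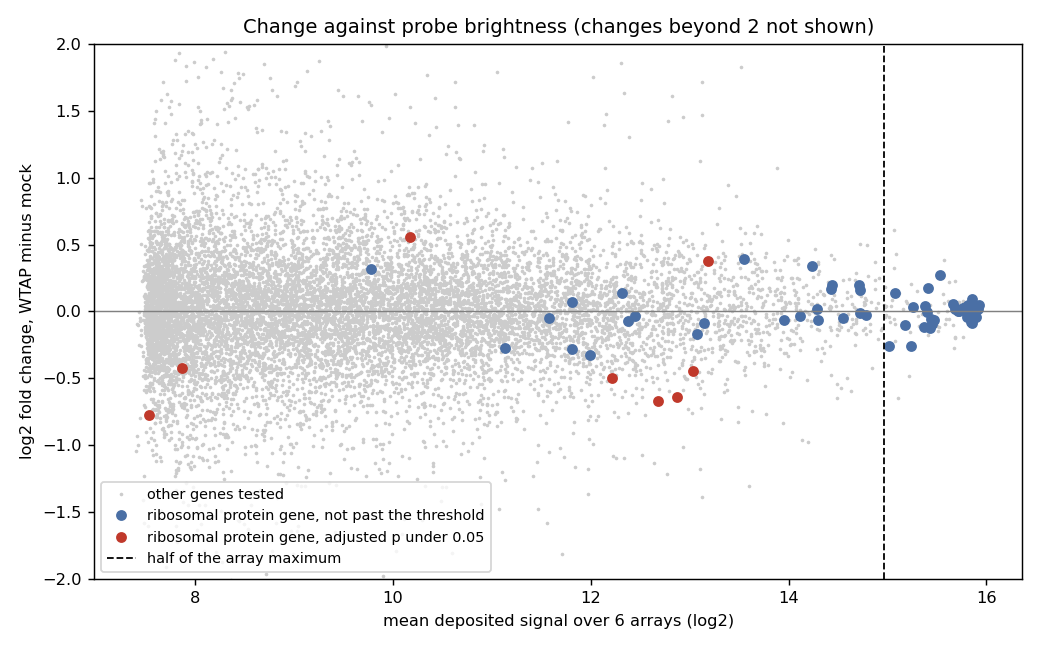
Log2 fold change (vertical axis, cut at 2 in both directions) against the mean deposited signal of the tested probe over 6 arrays (log2, horizontal axis) for all genes tested (grey) and the ribosomal protein genes off the Y chromosome (blue, and red where past the threshold). The 39 members to the right of the dashed line, at 50% of the array maximum, lie within 0.27 of 0.

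Whether the set as a whole stood higher or lower depended on the scale. After normalization the median member deviated from its mean over all arrays by 0.02, 0.02 and -0.01 on the mock arrays and by 0.02, -0.01 and -0.01 on the arrays labelled WTAP (log2), so the groups overlapped. Before normalization the median signal of the members was 37528, 38974 and 37348 in mock cells and 37196, 35368 and 33660 on the arrays labelled WTAP, so all 3 of these lay lower. The median signal of all tested genes was 674, 689 and 669 in mock cells and 678, 654 and 637 on the arrays labelled WTAP. Divided by the median signal of its array, the members' median was 195, 192 and 184 against 186, 174 and 174, and the groups overlapped. As a share of the summed signal of all tested genes, however, the members took 8.48%, 8.54% and 8.57% in mock cells and 8.71%, 9.01% and 8.83% on the arrays labelled WTAP, all 3 higher. Quantile normalization gives every array the same distribution, so a shift shared by the brightest probes would be removed by it. With median scaling in its place the members' median was 0.002, and that of all genes was -0.03. The median SD within groups was 0.083 for the members and 0.167 for all genes on the log2 scale. It was 0.071 for the 39 bright members, 0.069 for the other 74 genes as bright and 0.101 for the dimmer members.

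A further probe fell where the brightest one did not pass in 3 genes. Of 24 members with more than 1 detected probe, 13 had all probes on one side of 0. Over all 15830 detected probes 19.1% passed, and of 101 member probes 13 did, 11 lower and 2 higher. RPS24, a small-subunit protein also mutated in Diamond-Blackfan anaemia, read 14.37, 14.29 and 14.29 against 13.48, 13.47 and 13.54 through its second probe, which fell by 0.82 ± 0.10 (SE, adjusted p = 0.00182). Its brightest probe read 15.60, 15.52 and 15.36 against 15.49, 15.29 and 15.32, with a change of -0.13 (adjusted p = 0.485).

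The second RPS26 probe read 10.17, 10.24 and 10.47 against 9.28, 9.55 and 9.52 and fell by 0.84 ± 0.13 (SE, adjusted p = 0.00470), while the brightest had a change of -0.17. For RPL36 the second probe read 9.90, 10.09 and 10.29 against 9.57, 9.51 and 9.63 and fell by 0.52 ± 0.13 (SE, adjusted p = 0.0261), beside -0.01 for the brightest. In all 3 genes the gap between the probes was wider on every array labelled WTAP than on any mock array. They were picked because a further probe passed and the brightest did not, so this followed in part from the choice. How often such gaps separate the groups over all genes was not counted. Among other members, the groups were also separate for RPL41, with a wider gap, and for RPL14, with a narrower one. The difference between the probes of a gene, fitted array by array over 3565 pairs, was -0.69 ± 0.13 for RPS24, -0.67 ± 0.15 for RPS26 and -0.51 ± 0.13 for RPL36 (SE), and did not pass (adjusted p = 0.0668, 0.101 and 0.133, limma). Of these pairs 0.813% passed, with no member among them. Where on the transcript each probe lies was not analysed here. Ribosomal protein genes have many near-identical pseudogenes, so a probe may also read such a copy. Of 31 probes named for pseudogenes of the set, 17 were detected and 0 passed in limma, with changes of -0.64 to 0.42.

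**Figure D4:**
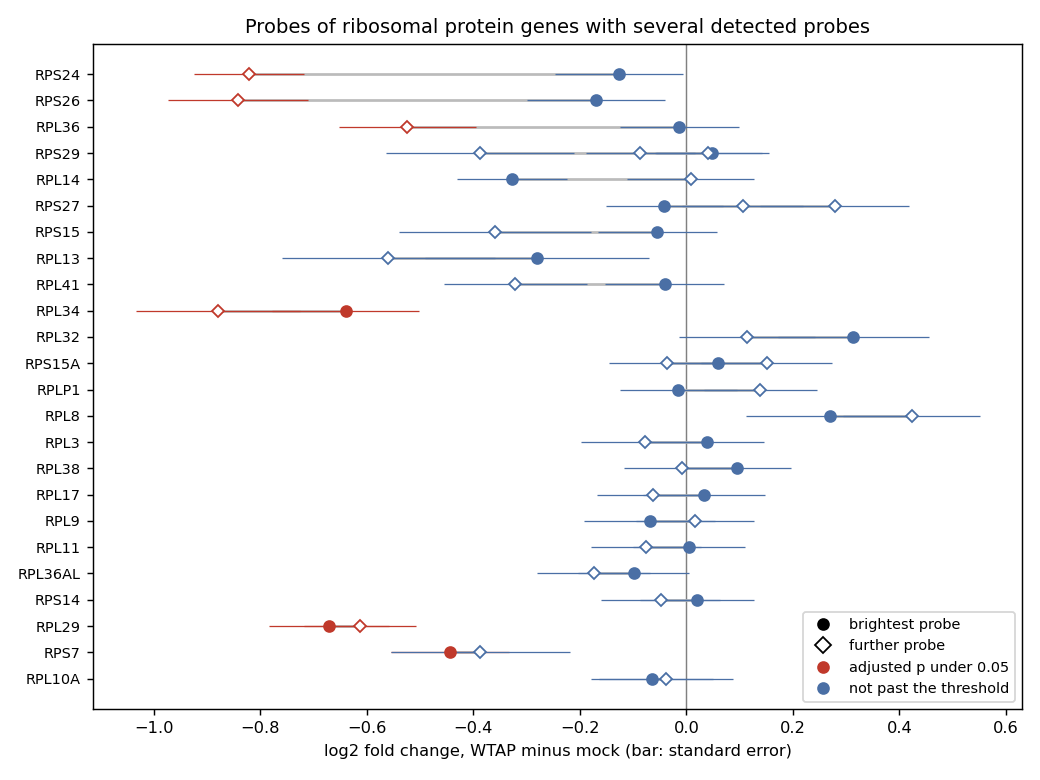
Log2 fold change (horizontal axis, with standard errors) of every detected probe of the 24 ribosomal protein genes with several, ordered by the distance between probes; filled circles mark the brightest probe, open diamonds the further ones, and red those past the threshold over all probes. RPS24, RPS26 and RPL36 show the widest gaps, with a fallen dimmer probe beside a brighter one that lies nearer to 0 and did not pass.

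The members lay on 22 chromosomes, and the median change of their 50 nearest tested genes ranged from -0.42 to 0.50. RPL7, RPL8, RPL30 and RPS20 on chromosome 8 had changes of 0.14, 0.27, 0.003 and 0.02, and none of the 4 passed. Of the chromosome's 412 tested genes 30.6% did, and the median there was 0.23. However, RPL8, RPL30 and RPS20 were among the 39 bright members, and 4.05% of the other genes as bright passed. The dimmer RPL8 probe read 10.82, 10.83 and 10.89 against 11.20, 11.12 and 11.49 (0.42 ± 0.13, SE, adjusted p = 0.0532 over all probes, limma). RPL21 on chromosome 13 had neighbours with a median of 0.50, and after the subtraction of it its value was -0.16 (adjusted p = 0.364). RPS24 on chromosome 10 had neighbours with a median of -0.42, between the values of its 2 probes. RPS27L on chromosome 15 had neighbours at 0.30, which left 0.09 (adjusted p = 0.720). After subtraction for every gene 13.9% of genes passed, and 6 members did: RPL29 (-0.60), RPL6 (-0.50) and RPS7 (-0.53) lower, RPL22 (0.45) and RPL28 (0.54) higher, and RPL10L lower by an amount for which no array labelled WTAP gives a measurement. The sign turned in 16 of 71 members with neighbours, RPL7, RPL30, RPS20 and RPL11 among them, and none of these 16 passed before or after.

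Other genes of translation are given for comparison as counts, to be read against the 20.4% of all genes that passed. FAU, which encodes a further small-subunit protein as a fusion, had a change of -0.06 (adjusted p = 0.749). Of 76 mitochondrial ribosomal protein genes 3 rose and 6 fell (11.8%, median -0.15). Their largest changes were -0.65 for MRPL1, 0.64 for MRPS21, 0.63 for MRPS31 and -0.63 for MRPL43. None of these 4 passed after subtraction of neighbouring genes (adjusted p = 0.239, 0.0976, 0.507 and 0.345). Of the whole mitochondrial list, 1 gene was higher and 5 were lower after the subtraction, where 13.9% of all genes passed. Of 66 genes of ribosome biogenesis 1 rose and 10 fell (16.7%, median -0.18), led by NOLC1 (-0.83), GTPBP4 (-0.81), RRP12 (-0.75) and DDX21 (-0.75), nucleolar proteins that build the subunits. All 6 tested biogenesis genes of chromosome 10, these 4 among them, fell. Of all 418 tested genes of that chromosome 49.3% passed, 194 genes lower, and the median there was -0.45. After subtraction of neighbouring genes 1 biogenesis gene was lower and 0 were higher. Of 10 assembly chaperones and importers 1 fell, BCCIP (-0.79), also on chromosome 10, which did not pass after the subtraction (adjusted p = 0.0988).

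Among 40 initiation factors EIF3H rose (0.50) and EIF4E (-0.86) and EIF3B (-0.37) fell (7.5%). EIF4E, through a dim probe, read 7.47, 7.41 and 6.51 against 6.31, 6.07 and 6.44, and passed in 8 of 16 alternatives. With the array number as a block EIF4E and EIF3B no longer passed (adjusted p = 0.0610 and 0.0603). Of 12 elongation and release factors EEF1A2 (0.82) and EEF1D (0.38) rose (16.7%). Of 13 hosts of small nucleolar RNAs, many of them TOP genes, SNHG6 rose (0.37, 7.69% of the list). Of 21 S6 kinases and genes of the mTORC1, LARP1 and MYC axis, RPS6KB1 (0.61), which encodes the S6 kinase that phosphorylates RPS6, and RPS6KA5 (0.52) rose, and the translation repressor EIF4EBP2 (-0.60) and the mTORC1 inhibitor AKT1S1 (-0.48) fell, in all 19% of the list and near the share over all genes. Of the genes named in these 4 groups, EEF1A2 and RPS6KA5 passed after subtraction of neighbouring genes.

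**Figure D5:**
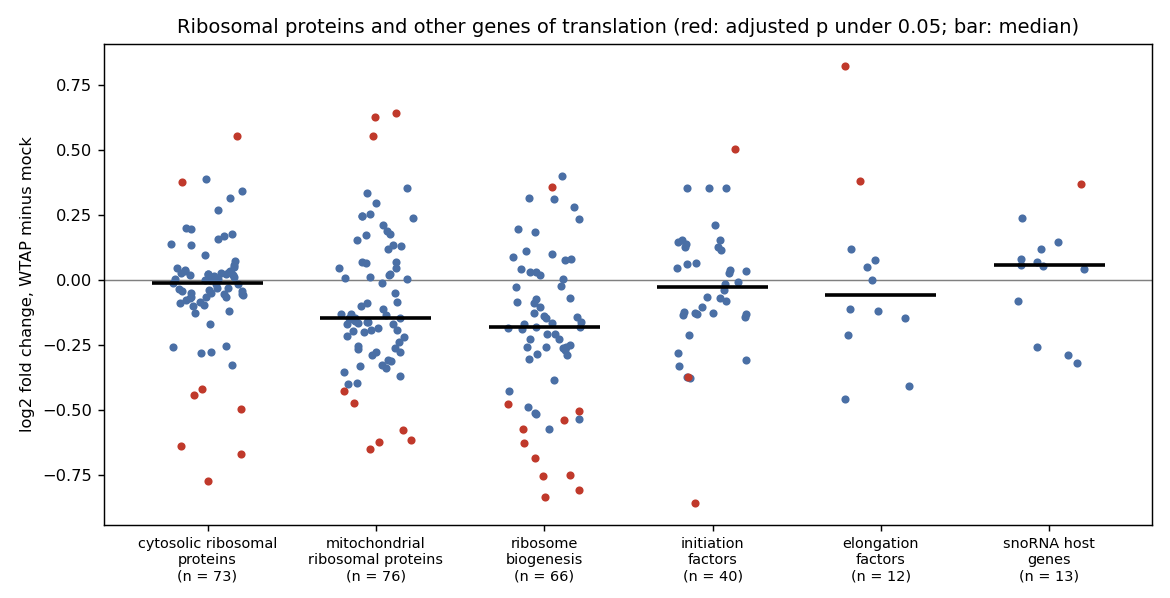
Log2 fold change (vertical axis, arrays labelled WTAP minus mock) of each tested gene of 6 groups; red marks adjusted p under 0.05 and the bar the median of the group. The cytosolic ribosomal proteins are packed around a median of -0.01, while the medians of mitochondrial ribosomal proteins and of biogenesis genes lie at -0.15 and -0.18.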

How the data were processed

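The authors deposited non-normalized bead intensity on the linear scale, with detection p-values, and a table of processed intensity that from its values is quantile normalized. Per the submitters' processing notes, BeadStudio 3.3 was used. Of 29285 probes, 27988 had 1 gene symbol, 0 several and 1297 none; symbols of 27819 were updated by gene identifier (RefSeq, GRCh38.p14).

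Values were background corrected, quantile normalized and taken to log2 with neqc (offset 16) of limma 3.58.1 in R 4.3.3. Of 15830 probes detected (p under 0.05) on at least 3 arrays, the one of highest mean represented a gene. Groups were compared with lmFit and eBayes, adjusted by Benjamini-Hochberg over 11586 genes; the fit was tested on simulated data. Fold changes hold the offset and understate dim genes. Where every array of a group missed a gene, its fold is a bound against the higher of its own value and the lowest detected one. Named are members past the threshold, the 3 largest changes per direction among the rest, members whose further probe passed, paralogs, and up to 4 changed genes of other lists; RPS6, RPS3A, RPS9, RPS4X, RPS19, RPS14, RPL5, RPL11, RPLP1, RPLP2 and the members on chromosome 8 were named after their values were seen. Members and lists were chosen with earlier results of these data known. Deviations of same-numbered arrays from their group means correlated at 0.12, 0.21 and 0.23 across genes, so the numbers, which come from the titles, were treated as pairing arrays in an alternative fit.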

Additional observations from a re-analysis of the deposited data

How the results depend on the processing

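The counts, the members' median and the genes named by rule were recomputed under 16 alternatives (12 for RPL10L), and one further setting was chosen after seeing the data. The further genes named, the probe differences, the TOP tract and the raw signals were not. The count of changed genes over all genes was 2366 and, without 1 array, 1345 to 2245; it was within 1.5 times the reported count elsewhere. It fell below that without mock array 5 (1430) or 6 (1559) and without array 4 (1345) or 5 (1568) labelled WTAP. The number of ribosomal protein genes higher was 2. It was 4 with no background correction, with an offset of 50, in the authors' processed table, with detection required on all 6 arrays and with trended and robust variance. It was 1 with median scaling, with no filter on detection and with the replicate block, and 0 to 2 without 1 array. The number lower was 6 genes, and 1 to 5 genes without 1 array. With every detected probe counted it was 11 probes, including both probes of RPL29 and of RPL34. The members' median of -0.01 was -0.032 over all detected probes and -0.038 among genes with a mean signal under 50% of the array maximum, the setting added later. With the array number as a replicate block 2584 genes passed in all and 5 members did: RPL10L, RPL22 and RPL39L lost their calls and no other member's call changed. Signs turned after subtraction of neighbouring genes in 16 of 71 members, RPL21 (-0.16) and RPS24 (0.29) among them, and for FAU (0.16), and for RPL36 without mock array 6 (0.053) or array 5 labelled WTAP (0.0011), within a range of -0.063 to 0.053 without 1 array; none of these passed the threshold before or after. The cause of these moves was not tested. Signals near the array maximum limit what can be read from the brightest members.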
